A study of Mus musculus with 13 samples.

Results

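Peaks assigned to 5 genes of the activin system were examined in 12 ChIP-seq peak lists from LβT2 cells, which are mouse pituitary cells of the gonadotrope type. The genes are Inhbb, Inha and Inhba, which encode subunits of activins and inhibins, and Fst and Fstl3, which encode the secreted antagonists follistatin and follistatin-like 3. A peak was taken as belonging to a gene when the deposited annotation named that gene as the one with the nearest transcription start, and when the peak lay within 100 kb of that start. This rule found 93 peaks of 538751 in all lists. Inhbb held 71 of them, Fstl3 held 13, Inha held 5 and Fst held 4. No peak within 100 kb was assigned to Inhba.

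The cells were LβT2-FLAG-mFoxL2 cells, stably transduced with a lentivirus that gives constitutive GFP and doxycycline-inducible FLAG-tagged mouse FOXL2, a forkhead transcription factor. All groups shared 48 h of doxycycline, a wash and 2 h in medium with 2% serum, and a recovery of 24 h is also given for each sample. The last step was 1 h of either vehicle or activin A at 1 nM before cross-linking in 1% formaldehyde. Antibodies against SMAD2/3, against the FLAG tag (called FOXL2 here) and against H3K27ac, the acetylated form of lysine 27 of histone H3 that marks promoters and enhancers in use, were applied to 2 vehicle and 2 activin samples apiece, with 3 plates pooled per sample. The labels do not say whether the pools came from separate cultures, so the spread between them may be technical. FOXL2 peaks report a tagged protein made on top of the cells' own, and a Protein-A control sample was not analysed here.

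Activins are dimers of β subunits, and inhibins pair the α subunit, made by Inha, with one β subunit. The βB subunit, made by Inhbb, gives activin B or inhibin B, and the βA subunit, made by Inhba, gives activin A or inhibin A. Activins bind type II and type I serine/threonine kinase receptors that phosphorylate SMAD2 and SMAD3, while inhibins and follistatins oppose them. Gonadotropes make activin B and follistatin themselves, and activin raises transcription of Fshb, the gene of the follicle-stimulating hormone β subunit.

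Peak lists carry no read totals, so sequencing depth is unknown here and the length of each list stands in its place. The SMAD2/3 lists held 605 and 144 peaks in vehicle and 7784 and 5970 in activin, so a SMAD2/3 peak missing from a vehicle list says little by itself. FOXL2 lists held 83834 to 97701 peaks and H3K27ac lists held 38995 to 41763. The labelled cell type was set beside its markers: H3K27ac peaks of all 4 libraries lay at 6 of 8 gonadotrope markers (Cga, Lhb, Gnrhr, Nr5a1, Pitx1 and Foxl2), and at 59% of protein-coding genes with any peak. They also lay at 2 of 8 markers of other pituitary lineages, Pomc and Ghrhr. Gh, Tshb, Pou1f1, Tbx19 and Sox2 had none. Fshb had no assigned H3K27ac peak in any library.

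The first comparison asked how many peaks each antibody gave at the 5 genes in vehicle and in activin. SMAD2/3 peaks at the 5 genes numbered 1 in vehicle 1, 0 in vehicle 2, 3 in activin 1 and 4 in activin 2, all of them at Inhbb. The means were 0.5 ± 0.707 (SD, n = 2) in vehicle and 3.5 ± 0.707 (SD, n = 2) in activin, and the groups did not overlap. The whole SMAD2/3 lists did not overlap either, with 605 and 144 peaks in vehicle and 7784 and 5970 in activin. The separation is thus not particular to the 5 genes. FOXL2 peaks numbered 7 and 5 in vehicle and 6 and 7 in activin, and these groups overlapped. H3K27ac peaks numbered 17 and 18 in vehicle and 14 and 11 in activin, with means of 17.5 ± 0.707 and 12.5 ± 2.12 (SD, n = 2 each). The H3K27ac groups did not overlap, whereas the whole H3K27ac lists did, with 41150 and 40398 peaks in vehicle and 41763 and 38995 in activin. Peaks of the activin lists at Inhbb were fewer and longer, as given below by length.

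Exact permutation of the treatment labels, two-sided and over 6 labellings, gave p = 0.33 for SMAD2/3, p = 1 for FOXL2 and p = 0.33 for H3K27ac. The value 0.33 is the smallest that 2 against 2 libraries allow, so no such comparison can pass the usual threshold. The difference of 3 SMAD2/3 peaks stood against a pooled SD of 0.707 and the difference of -5 H3K27ac peaks against 1.58. With peaks of −log10 q of at least 5 the H3K27ac difference was -1, with p = 0.67 in the exact permutation test, so the separation of the H3K27ac counts rests on weaker peaks. Counted as deposited, both differences were larger than the spread between replicates, whereas the FOXL2 difference of 0.5 was smaller than its pooled SD of 1.12. Counted by coordinate, whatever the assigned gene, the FOXL2 difference was 3.5, with p = 0.33 in the same exact test. The whole FOXL2 lists were also longer in activin, with 97701 and 94006 peaks against 86401 and 83834 in vehicle. A higher FOXL2 count in activin is thus not particular to the 5 genes.

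**Figure D1:**
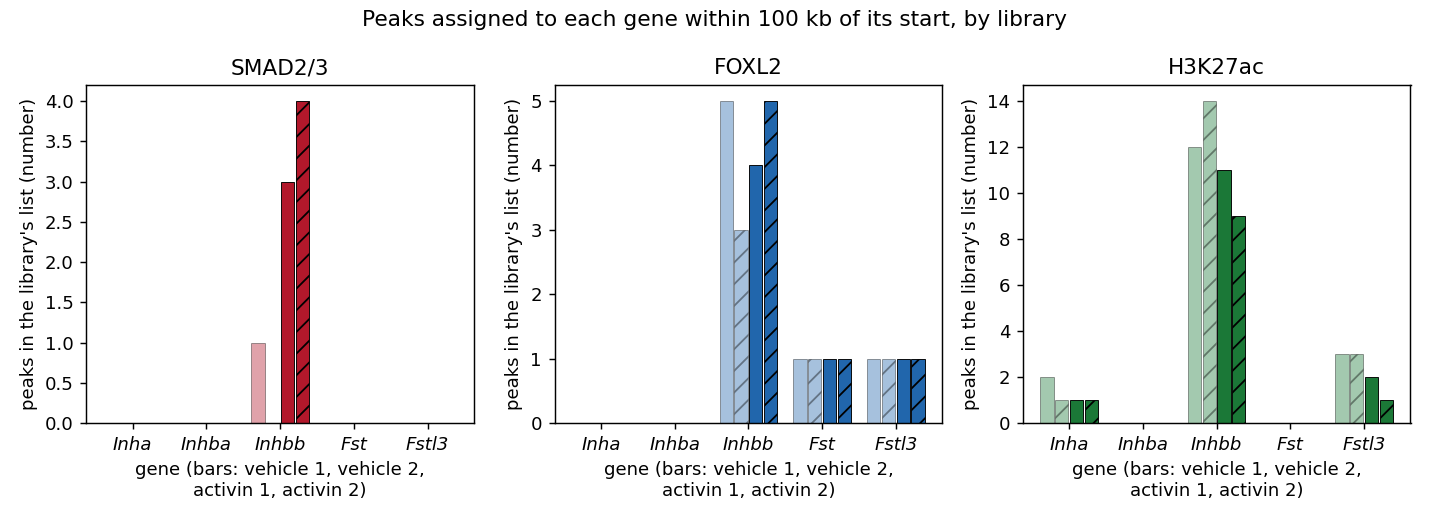
Number of peaks (vertical axes) assigned to each of the 5 genes within 100 kb of its start, in each library, with 1 panel per antibody. Pale bars are vehicle and dark bars activin, and hatching marks replicate 2. All assigned SMAD2/3 peaks sit at Inhbb, with 1 and 0 in vehicle and 3 and 4 in activin, and Inhba has no assigned peak of any antibody.

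Inhbb, on the minus strand of chromosome 1, starts at position 119422248 in the deposited annotation and ends at 119415463 in RefSeq (GRCm38.p6). In the text below, positive distances run in the direction of transcription. Most of its peaks fell into 2 clusters, one around the start and intron 1 and the other from +16.8 to +35.7 kb, beyond the end of the gene. The 4 libraries of each antibody gave 4 SMAD2/3 regions, 8 FOXL2 regions and 11 H3K27ac regions at Inhbb once peaks sharing at least 1 bp were merged. All 4 SMAD2/3 regions were intergenic and lay in the downstream cluster.

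The SMAD2/3 region at +32.3 kb, chr1:119389753-119390136, was the strongest. Fold enrichment as deposited by the authors, which is a ratio of signal to background, was 13.7 and 17.5 in the activin libraries and 3.67 in vehicle 1, and vehicle 2 had no peak there. Within their own lists, ranked by the authors' −log10 q with 100 for the strongest peak, the activin peaks both stood at the 98.6th percentile and the vehicle 1 peak at the 30.9th. The region was therefore among the top sites of both activin lists and also present in the longer of the 2 vehicle lists. It lay 25.3 kb beyond the end of the gene.

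The SMAD2/3 regions at +24.1 kb and +28.9 kb were activin-only, meaning that each activin library and no vehicle library held a peak. At +24.1 kb, chr1:119397954-119398280, fold enrichment was 17.6 and 11.4 and the percentile 96.1 and 85.2 in activin 1 and activin 2. At +28.9 kb, chr1:119393155-119393553, fold enrichment was 9.22 and 6.12 and the percentile 91.7 and 79.4. The region at +17.1 kb, chr1:119405077-119405276, had a peak in activin 2 alone, with a fold of 3.15 at the 0.863th percentile, near the bottom of that list.

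These 2 activin-only regions of 4 stand against 54.1% of all SMAD2/3 regions within 100 kb of any start, so the activin-only call was as common in the whole data set. No SMAD2/3 region at the 5 genes was vehicle-only, and none had a peak in all 4 libraries. The number of sites at Inhbb can be set beside that at other genes. It held 3 SMAD2/3 regions common to both activin libraries, while 11.2% of 15377 protein-coding genes with any peak held at least 1 and 0.832% held 3 or more. In that ranking 48 genes held more than Inhbb. These shares are a description, with no test.

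**Figure D2:**
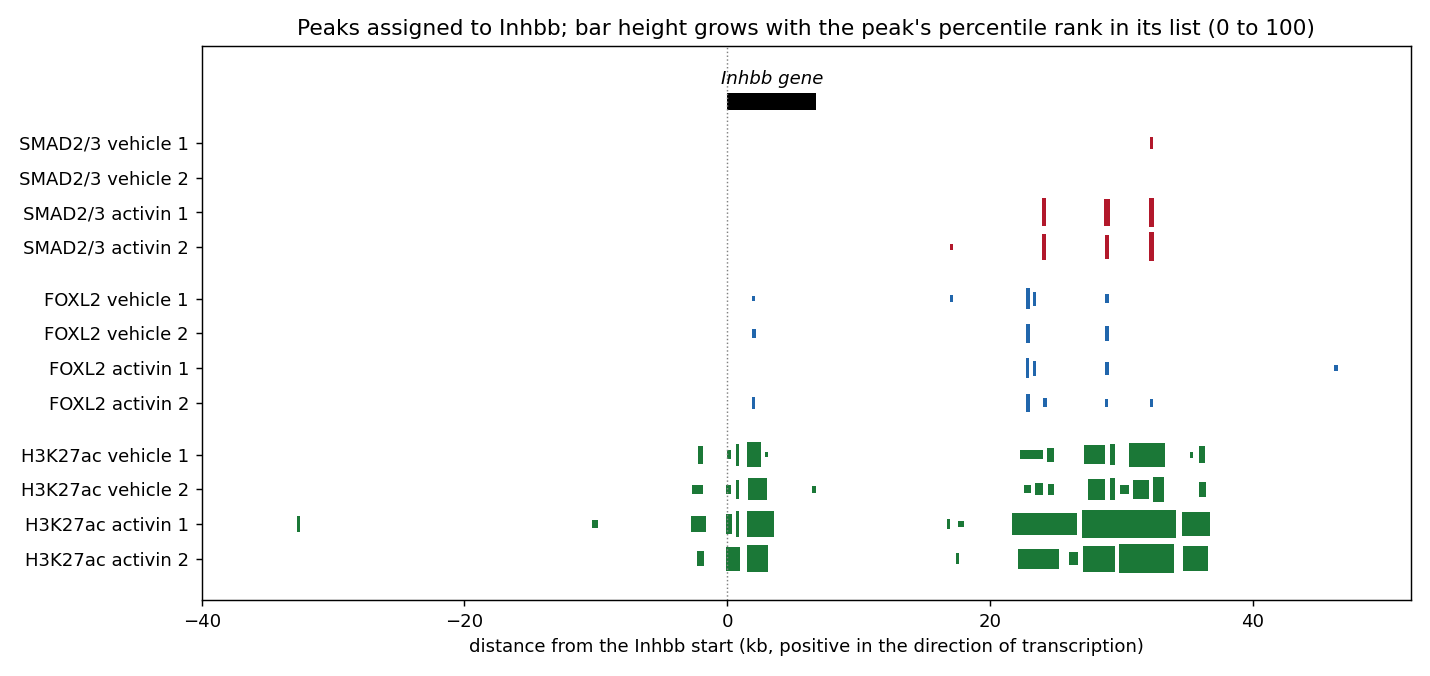
Peaks assigned to Inhbb in each of 12 libraries, drawn to scale along the distance from the start in kb, except that peaks shorter than 0.25 kb are drawn 0.25 kb wide. Each row is 1 library and bar height grows with the peak's percentile in its list. SMAD2/3 bars stand at 24.1, 28.9 and 32.3 kb in both activin libraries, inside the stretch where the H3K27ac bars are longest.

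FOXL2 lay close to the SMAD2/3 sites without being strong there. At +28.9 kb a FOXL2 region, chr1:119393220-119393488, had a peak in all 4 libraries, with folds of 3.28 and 3.93 in vehicle and 3.84 and 3.05 in activin. Its percentile among FOXL2 peaks ran from 12.4 to 39.1, and vehicle and activin overlapped. The distance between the SMAD2/3 and FOXL2 summits in the same library was 27 bp in activin 1 and 7 bp in activin 2.

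At the other SMAD2/3 sites FOXL2 peaks were found in 1 library each. At +32.3 kb activin 2 had a FOXL2 peak of fold 3.05 with its summit 42 bp from the SMAD2/3 summit. In activin 1 the nearest FOXL2 summit was 3378 bp away. At +24.1 kb activin 2 had a FOXL2 peak of fold 4.48 at a summit distance of 3 bp, and in activin 1 the nearest summit was 782 bp away. With the demand that both activin libraries have a FOXL2 peak, 1 of 3 SMAD2/3 regions at Inhbb overlapped FOXL2, against 81.3% over all 4509 SMAD2/3 regions of both activin libraries. Without activin 1 the count was 3 of the 4 regions of activin 2, and with peaks of −log10 q of at least 5 it was 0 of 3. All 3 overlapped an H3K27ac region of both activin libraries, against 78.3% over all.

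The strongest FOXL2 region of Inhbb by mean percentile was at +22.9 kb, chr1:119399183-119399531. Its fold was 9.45 and 6.74 in vehicle and 8.07 and 6.84 in activin, at percentiles between 53.4 and 66.3, and the treatments overlapped. It did not overlap a SMAD2/3 region. Another FOXL2 region lay inside intron 1 at +2.02 kb, chr1:119420104-119420353, with folds of 2.94 and 4.40 in vehicle and 5.63 in activin 2, and no peak in activin 1. The remaining Inhbb regions of FOXL2, at +46.3, +23.4 and +17.1 kb, had a peak in 1 or 2 libraries, with folds between 2.86 and 5.57.

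H3K27ac at Inhbb covered more DNA after activin than after vehicle. The H3K27ac peaks assigned to Inhbb covered 9744 and 9499 bp in vehicle and 19545 and 15645 bp in activin, in 12 and 14 peaks and in 11 and 9 peaks. Both activin values exceeded both vehicle values. The means were 9622 ± 173 and 17595 ± 2758 bp (SD, n = 2 each), a ratio of 1.83, and the difference of 7.97 kb gave p = 0.33 in the exact permutation test, the smallest possible value. The mean fold per covered base was 3.96 and 3.53 in vehicle and 5.48 and 5.50 in activin. This measure was added after the peaks had been seen.

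The larger coverage at Inhbb was not shared by the whole lists. H3K27ac peaks covered 50.4 and 49.2 Mb of the genome in vehicle and 51.8 and 43.6 Mb in activin, and the median ratio over 9073 protein-coding genes with H3K27ac peaks in all 4 libraries was 0.947. Both activin values exceeded both vehicle values at 21.2% of these genes, and the reverse held at 31.9%. A ratio at least as high as that of Inhbb was found at 552 of the 9073 genes.

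**Figure D3:**
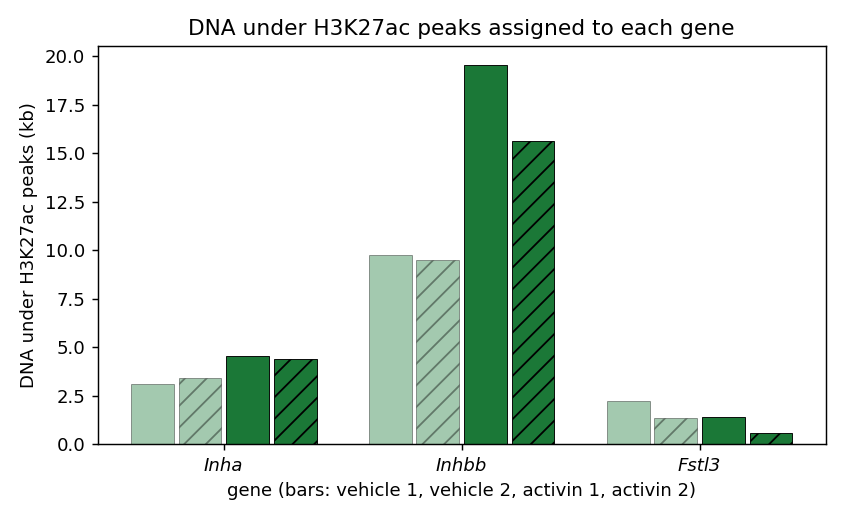
Length of DNA under H3K27ac peaks (kb, vertical axis) assigned to Inha, Inhbb and Fstl3 in each library, with pale bars for vehicle, dark bars for activin and hatching for replicate 2. At Inhbb both activin bars, 19.5 and 15.6 kb, stand above both vehicle bars, 9.74 and 9.50 kb. Inhba and Fst have no assigned H3K27ac peak and are not drawn.

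Of the length added at Inhbb, 60.2% lay in the 2 H3K27ac regions that hold its SMAD2/3 sites. These regions already held most of the covered length in vehicle. They held 4643 and 2275 of 9744 bp in vehicle 1, and 4465 and 1527 of 9499 bp in vehicle 2. The 60.2% therefore shows no concentration of the added length in them. The H3K27ac region chr1:119388074-119395239, centred at +30.6 kb, holds the SMAD2/3 sites at +32.3 and +28.9 kb. Its peaks covered 4643 bp in 3 peaks and 4465 bp in 5 peaks in vehicle, and 7166 bp in 1 peak and 6615 bp in 2 peaks in activin. The strongest fold in it was 4.53 and 4.70 in vehicle and 7.13 and 6.88 in activin. The activin peaks were fewer and covered more of the region.

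The neighbouring region chr1:119395571-119400573, centred at +24.2 kb, holds the SMAD2/3 site at +24.1 kb and the strongest FOXL2 site. It was covered over 2275 and 1527 bp in vehicle and over 4968 and 3761 bp in activin, and its strongest fold was 3.36 and 2.85 in vehicle and 4.40 and 4.17 in activin. The region chr1:119385505-119387650 at +35.7 kb overlapped no SMAD2/3 or FOXL2 region of both activin libraries. Its covered length was 626 and 534 bp in vehicle and 2146 and 1903 bp in activin, at folds of 3.44, 3.12, 4.50 and 5.03. In each of the 3 downstream regions both activin values were above both vehicle values, in length and in fold. How common this is over all H3K27ac regions was not computed for length or fold. The share for rank is given below.

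Acetylation also ranked higher at the start of Inhbb. The region over the start, chr1:119421295-119422335, spans exon 1 and had folds of 5.80 and 4.45 in vehicle and 7.13 and 6.01 in activin. The region in intron 1, chr1:119418665-119420757 at +2.54 kb, had folds of 6.35 and 4.89 in vehicle and 6.44 and 7.47 in activin. SMAD2/3 had no peak in either region in any library.

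The RefSeq bases before the Inhbb start are shown because the acetylated region at the start reaches into them. They are the 250 bases chr1:119422249-119422498 of GRCm38.p6, minus strand, written from 5′ to 3′ up to the base before the start. Capitals mark the 52 bases nearest the start that lay under an H3K27ac peak in all 4 libraries.
Inhbb: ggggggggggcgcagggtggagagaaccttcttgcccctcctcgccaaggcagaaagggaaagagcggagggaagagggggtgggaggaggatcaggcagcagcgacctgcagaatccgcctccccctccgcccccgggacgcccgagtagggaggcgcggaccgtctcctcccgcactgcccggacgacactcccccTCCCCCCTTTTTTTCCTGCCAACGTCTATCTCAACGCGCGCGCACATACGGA
This stretch is 68% G and C with 21 CpG pairs, whereas the median over promoter stretches of the same length is 52.4% and 6. The H3K27ac peaks reached 52 and 87 bp into it in vehicle and 66 and 80 bp in activin, so the upstream limit did not separate the treatments.

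To compare strength across libraries on 1 footing, each antibody's regions with a peak in all 4 libraries were ranked by −log10 q in each library, over those regions only. Inhbb had 6 such H3K27ac regions, and in 5 of them both activin percentiles were above both vehicle percentiles. With peaks of −log10 q of at least 5 the count was 3. Over all 22999 such regions near a start this order was seen in 28%, and the reverse in 29.7%. The percentiles in vehicle 1, vehicle 2, activin 1 and activin 2 were 60.3, 74.3, 93.8 and 93.3 at +30.6 kb. They were 11.6, 8.67, 50.0 and 42.6 at +24.2 kb and 24.8, 18.9, 58.9 and 68.3 at +35.7 kb. The downstream regions thus moved up the ranking by more than the replicates differed. These 3 regions and the 2 near the start share a gene and lie in 2 clusters, so they are not independent.

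At the Inhbb start the percentiles were 51.7 and 34.1 in vehicle and 72.5 and 66.4 in activin, and in intron 1 they were 68.6 and 51.7 in vehicle and 74.7 and 85.4 in activin. The sixth region, upstream at -2.21 kb (chr1:119423896-119425013), had 28.8 and 4.21 in vehicle and 16.9 and 19.4 in activin, which overlap. One further H3K27ac region was activin-only, chr1:119404243-119404842 at +17.7 kb, with folds of 2.77 and 3.33. That is 1 of 15 regions at the 5 genes, against 5.82% over all H3K27ac regions near a start, and the count ran from 1 to 4 with 1 library left out. The other 4 Inhbb regions had a peak in 1 library each. Activin 1 had chr1:119405270-119405541 at +16.8 kb, chr1:119432064-119432506 at -10.0 kb and chr1:119454763-119454982 at -32.6 kb, with folds of 2.77, 2.78 and 3.62. Vehicle 2 had chr1:119415551-119415742 in exon 2 at +6.60 kb, with a fold of 2.73.

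**Figure D4:**
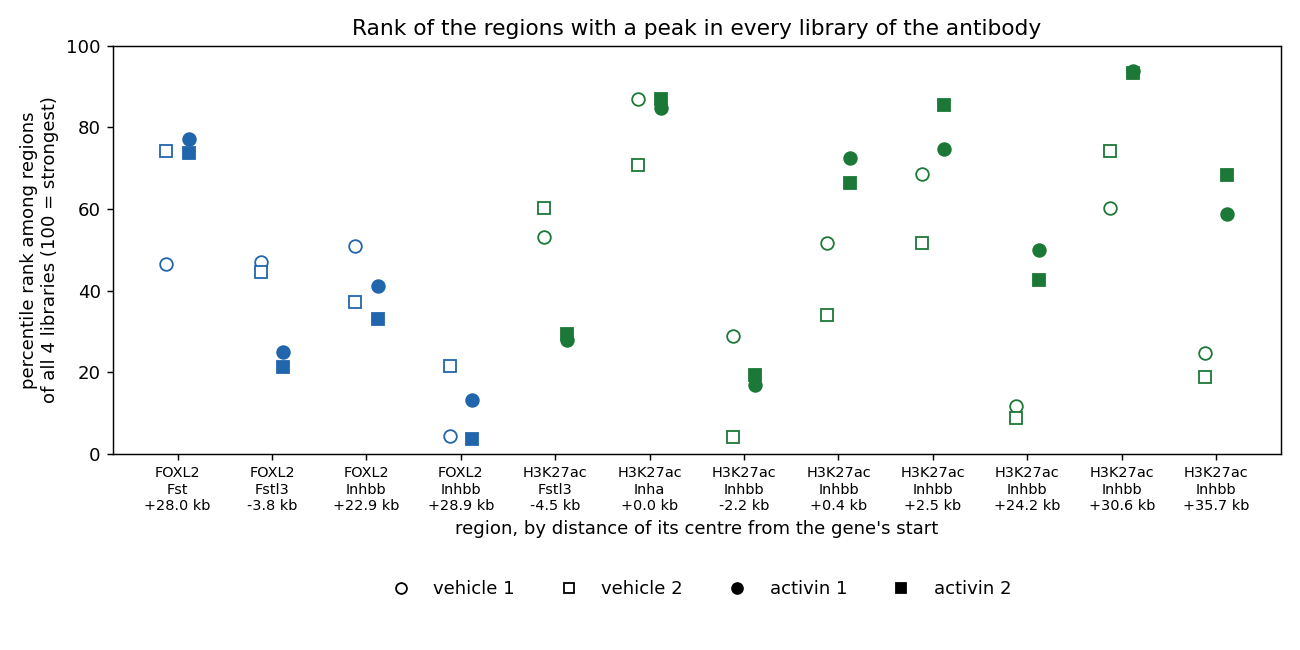
Percentile (vertical axis, 100 for the strongest) of each region that has a peak in all 4 libraries of its antibody, among all such regions, for FOXL2 (blue) and H3K27ac (green). Open symbols are vehicle and filled symbols activin, with circles for replicate 1 and squares for replicate 2. Filled symbols stand above open ones at 5 of 6 H3K27ac regions of Inhbb, and below them at the FOXL2 and H3K27ac regions of Fstl3.

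Inha, which encodes the α subunit that makes a dimer an inhibin, had a single H3K27ac region and no FOXL2 or SMAD2/3 peak assigned to it. The region chr1:75504756-75509434 covered the Inha start at position 75507077 (plus strand), and the deposited annotation also places it at the promoter of the neighbouring gene Obsl1. Its fold was 7.09 and 5.25 in vehicle and 6.58 and 6.75 in activin. The percentiles among regions of all 4 libraries were 87.0 and 70.9 in vehicle and 84.7 and 86.9 in activin, and the treatments overlapped. The peaks covered 3128 and 3414 bp in vehicle and 4567 and 4385 bp in activin. The covered length was thus larger in both activin libraries, with a ratio of 1.37 between the means, while the strength was not. Larger length in both activin libraries was seen at 21.2% of the 9073 genes with H3K27ac peaks in all 4 libraries. A ratio at least as high as that of Inha was found at 1289 of them.

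Inhba, which encodes the βA subunit of the activin A that was added to the cells, had no assigned peak of any antibody within 100 kb of its start on chromosome 13 (position 16014475, plus strand). The deposited start lies 10219 bp inside the RefSeq gene, which spans 16004256 to 16031609. Farther out, a FOXL2 peak of vehicle 2 lay at -171 kb with a fold of 5.21, and one of activin 2 at -263 kb with a fold of 3.98. Each was present in 1 of 4 libraries. Inhba thus had none of the SMAD2/3, FOXL2 and H3K27ac peaks that were assigned to Inhbb, although both genes encode β subunits.

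Fst, which encodes follistatin, an extracellular protein that binds activin and blocks its access to receptors, had 1 FOXL2 region and neither H3K27ac nor SMAD2/3 peaks assigned. The region chr13:114430561-114430946 lies at +28.0 kb from the start at position 114458730 (minus strand), beyond the gene, which ends at 114452262 in RefSeq. Its fold was 11.4 and 16.7 in vehicle and 22.2 and 19.2 in activin, the highest of the FOXL2 regions of the 5 genes in each library. The percentiles among regions of all 4 libraries were 46.6 and 74.3 in vehicle and 77.2 and 73.7 in activin. Vehicle 2, at 74.3, was just above activin 2, at 73.7, so the treatments overlapped narrowly in rank. By fold both activin values were above both vehicle values. The same held for the percentile in each library's own list, 63.2 and 82.0 in vehicle and 86.1 and 83.4 in activin. Those lists differ in length, and no share over all regions was computed for these measures.

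Fstl3 encodes a secreted glycoprotein related to follistatin that also binds activin. It had 1 FOXL2 region and 3 H3K27ac regions, none of them with SMAD2/3. The FOXL2 region chr10:79773323-79773758 lies 3.75 kb upstream of the start at position 79777292 (plus strand). Its fold was 9.37 and 7.32 in vehicle and 6.04 and 5.03 in activin, and its percentiles among regions of all 4 libraries were 47.0 and 44.5 in vehicle and 24.9 and 21.2 in activin. Both vehicle values were above both activin values, an order seen in 33.1% of the 50526 FOXL2 regions of all 4 libraries near a start.

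One acetylated region of Fstl3 had the same order. The H3K27ac region chr10:79772279-79773267 at -4.52 kb had folds of 4.61 and 4.51 in vehicle and 3.47 and 3.57 in activin. Its percentiles were 53.1 and 60.3 in vehicle and 27.9 and 29.4 in activin, an order seen in 29.7% of regions. The region chr10:79773613-79774430 at -3.27 kb overlapped the FOXL2 region and had folds of 4.13 and 3.99 in vehicle and 4.23 in activin 1, with no peak in activin 2.

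The Fstl3 region chr10:79780572-79781202, at +3.60 kb inside the gene, was vehicle-only, with folds of 3.28 and 4.01. The deposited annotation places its vehicle 2 peak at an Fstl3 promoter and its vehicle 1 peak at the transcription end of another gene. The region is 1 of 15 H3K27ac regions at the 5 genes, against 6.31% over all. Covered length at Fstl3 was 2230 and 1333 bp in vehicle and 1413 and 580 bp in activin, which overlap. Among assigned regions, Fstl3 was the gene of the 5 where vehicle ranked above activin, in 1 FOXL2 region and 1 H3K27ac region. Assigned regions of Inhbb ranked higher with activin in H3K27ac alone. FOXL2 regions at -50.6, -51.2 and +81.3 kb from the Inhbb start, assigned to other genes, also ranked higher with activin. Over all FOXL2 regions of all 4 libraries near a start, 25.8% had that order. The difference between Fstl3 and Inhbb was not tested.

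The RefSeq bases before the Fstl3 start are shown beside those of Inhbb because both are rich in G and C, while H3K27ac peaks reached into that of Inhbb alone. They are chr10:79777024-79777273 of GRCm38.p6, plus strand. Capitals mark the short SMAD motif CAGAC, searched on both strands, where it reads GTCTG on the strand shown.
Fstl3: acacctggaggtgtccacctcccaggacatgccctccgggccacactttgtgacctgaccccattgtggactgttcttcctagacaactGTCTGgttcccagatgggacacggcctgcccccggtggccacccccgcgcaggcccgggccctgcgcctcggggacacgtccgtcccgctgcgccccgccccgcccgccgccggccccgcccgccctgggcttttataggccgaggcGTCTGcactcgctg
This stretch is 71.2% G and C with 22 CpG pairs, and no H3K27ac peak touched it in any library. The table of RefSeq promoter windows, 300 bases from 250 before to 50 after each start, had an entry for 4 of the 5 genes. CAGAC was found 2 times in the Fstl3 window, 1 time in that of Inha and not in those of Inhbb and Inhba. It occurs in 42.2% of 32851 windows. The forkhead core TAAACA, in 12% of windows, and the AP-1 motif TGANTCA, in 6.75%, were in none of the 4 windows on either strand, so no 2 matches of different motifs overlapped.

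Over the 5 genes, then, no FOXL2 region was activin-only or vehicle-only, against 8.72% and 3.25% of 107234 FOXL2 regions near a start. Of 10 FOXL2 regions, 4 had a peak in all 4 libraries. None of those ranked higher in both activin libraries, an order found in 25.8% of such regions, and 1, at Fstl3, ranked higher in both vehicle libraries. Of 15 H3K27ac regions, 8 had a peak in all 4 libraries, of which 5 ranked higher in activin, all at Inhbb, 1 ranked higher in vehicle and 2 overlapped. With so few regions these counts are descriptions.

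A list of 22 other genes of the activin pathway, covering further subunits, receptors, coreceptors, antagonists, SMADs and Fshb, was read in the same way. SMAD2/3 regions common to both activin libraries lay at 4 of the 22, against 11.2% of protein-coding genes with any peak. Inhbe and Acvr1c, which are among the 22, had no assigned peak of any antibody and so are not counted in that share. Of the 4 genes, 3 had an activin-only region. None of the 22 had a vehicle-only one. Tgfbr3, which encodes betaglycan, a coreceptor for inhibin, had an activin-only region at +9.72 kb with folds of 5.89 and 6.27. Smad2 and Smad3, the receptor-activated SMADs themselves, had activin-only regions at -13.7 kb (folds 4.02 and 3.58) and at +48.5 kb (folds 4.68 and 4.47).

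Smad6, which encodes an inhibitory SMAD, had a SMAD2/3 region at its start, with a fold of 6.41 in vehicle 1, none in vehicle 2, and 8.06 and 9.58 in the activin libraries. By the percentile in each activin list, none of these 4 reached the Inhbb site at +32.3 kb. Smad6 came closest, at 77.5 and 80.9. Fshb had no SMAD2/3 peak assigned to it by nearest start.

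FOXL2 and H3K27ac at the 22 genes showed no common direction. FOXL2 regions common to both activin libraries lay at 15 of the 22 genes and H3K27ac regions at 14. The shares over all protein-coding genes with any peak, which leave out Inhbe and Acvr1c, were 64.9% and 64.4%. Of 47 FOXL2 regions of all 4 libraries, 10 ranked higher in both activin and 11 in both vehicle libraries. Of 86 FOXL2 regions in all, 3 were activin-only and 6 vehicle-only. Of 29 H3K27ac regions of all 4 libraries, 7 ranked higher in activin and 11 in vehicle, and none of 54 was activin-only or vehicle-only. Acvr2b, which encodes a type II activin receptor and was picked out after its values were seen, had 3 such H3K27ac regions, all ranked higher in activin.

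The genes whose peaks were most like those of each member were found by comparing, over the 12 libraries, the percentile of each gene's strongest peak in its list, counted as 0 where there was none. For Inhbb the nearest of 15377 protein-coding genes were Zc3hc1, Tldc1 and Fscn1, with mean absolute differences of 8.27, 8.65 and 8.81 percentile points. For Inha they were Rem2, Kctd15 and Adsl, at 0.523 to 0.745 points, and for Fst they were Slc22a16, Gimap8 and Trmt6, at 0.701 to 0.849 points. For Fstl3 they were Csad, Map3k9 and Rpl26, at 3.21 to 4.08 points. The closer fits of Inha and Fst rest on lists in which most entries are 0, because each had peaks of 1 antibody.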

How the data were processed

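Each of 12 ChIP-seq libraries came with a peak list and an annotation table; the 5 genes and every gene list were chosen with earlier results of these data known. Bowtie2, MACS2 and HOMER and the build GRCm38 (mm10) are named in the submitters' processing notes, without versions. Peaks were called per library, as the deposited lists show. Each peak has a fold enrichment (the ratio), a −log10 p and −log10 q and a score in the deposited lists, made by the authors; distances to the nearest start come from the deposited annotation tables. How the background was set is not given in the sources used here. Values were used to rank peaks within a list, and folds are printed as deposited and were not tested between lists. The smallest −log10 q was 1.30 or more for SMAD2/3 and FOXL2 and 1.00 or more for H3K27ac.

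Peaks of an antibody's 4 libraries were merged where they shared at least 1 bp, with Python 3.11.15 and pandas 2.3.3, and the merging and calls were tested on simulated data. Numbers of peaks were compared by exact permutation of the treatment labels (two-sided, 6 labellings). All 5 genes are named; regions given in full are every SMAD2/3 region, every H3K27ac region over a start, every region found in both libraries of 1 treatment only and each gene's strongest FOXL2 region, with others added after their values were seen. Pathway genes are named where both activin libraries had a SMAD2/3 region. Alternatives were a −log10 q of at least 5, a window of 50 kb, assignment by coordinate, an overlap of 50%, ranking by fold, each library left out and a replicate block.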

Additional observations from a re-analysis of the deposited data

How the results depend on the processing

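The difference in SMAD2/3 peaks stayed positive, from 2.5 to 5.5, and that in H3K27ac peaks stayed negative, at -1 with a −log10 q of at least 5 (exact permutation p = 0.67) and -9 by coordinate. The FOXL2 difference was 0 with a −log10 q of at least 5 and 3.5 by coordinate (exact permutation p = 0.33). Leaving out vehicle replicate 2 turned the FOXL2 difference from 0.5 to -0.5, and its differences with 1 library left out ran from -0.5 to 1.5. With a −log10 q of at least 5, 2 H3K27ac regions were activin-only, 3 ranked higher with activin and 0 with vehicle, and 0 SMAD2/3 regions overlapped FOXL2. With every peak within 100 kb by coordinate, whatever its assigned gene, FOXL2 regions were activin-only in 3 cases and vehicle-only in 1, ranked higher with activin in 4 and with vehicle in 2. H3K27ac regions were then vehicle-only in 2 cases and ranked higher with activin in 8 and with vehicle in 8, and 2 SMAD2/3 regions overlapped FOXL2. The excess of activin over vehicle in the ranking of H3K27ac regions thus held at Inhbb, and not over the windows of the 5 genes together. Around Inhbb, regions added by coordinate at -51.0 and -76.8 kb ranked higher with activin, and none ranked higher with vehicle. Activin above vehicle was the order in 28% of H3K27ac regions of all 4 libraries near a start. The added regions that ranked higher with vehicle lay around Inha and Fstl3. One added region at +51.1 kb from Fstl3 ranked higher with activin. With an overlap of 50% of the shorter peak, 0 H3K27ac regions were activin-only, and ranking by fold put 1 FOXL2 region higher with activin. With 1 library left out, activin-only regions numbered 0 to 2 (FOXL2) and 1 to 4 (H3K27ac), and vehicle-only regions 0 to 1 and 1 to 2. Regions ranked higher with activin numbered 0 to 1 for FOXL2 and 0 to 1 for SMAD2/3. Regions ranked higher with vehicle numbered 1 to 3 for FOXL2 and 1 to 3 for H3K27ac, and SMAD2/3 regions over FOXL2 numbered 1 to 3. Without activin replicate 1 the overlap was 3 of the 4 regions of activin 2. The added length under H3K27ac peaks at Inhbb ran from 6.02 to 9.92 kb over the alternatives.

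With a replicate block, that is, differences within a replicate number, the difference in peaks was 3 for SMAD2/3, 0.5 for FOXL2 and -5 for H3K27ac. These are the unpaired values by construction. The exact paired test cannot give a p under 0.5 with 2 pairs, and the labels share only a number between treatments. The depth of each list is unknown, which limits every statement on a missing peak, above all in the vehicle SMAD2/3 lists.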

Other observations

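Assignment to the nearest start leaves out sites near the 5 genes that carry another gene's name. The SMAD2/3 site of highest fold among these lay upstream, at -50.6 kb from the Inhbb start, at chr1:119472705-119473048, and was assigned to the predicted gene Gm29454. SMAD2/3 fold enrichment there was 6.30 in vehicle 1, 18.6 in activin 1 and 17.8 in activin 2, with no peak in vehicle 2, at percentiles of 68.0, 98.6 and 97.7 in those lists. It resembled the assigned site at +32.3 kb in being near the top of both activin lists and in the longer vehicle list. A FOXL2 region over it, chr1:119472704-119473086, had folds of 7.21 and 9.31 in vehicle and 16.5 and 14.1 in activin, and a neighbouring one, chr1:119473340-119473618, had 4.90 and 4.78 in vehicle and 8.58 and 9.05 in activin. The H3K27ac region around them, chr1:119471026-119475467, had 6.33 and 5.87 in vehicle and 8.97 and 7.39 in activin. In all 3 regions both activin libraries ranked above both vehicle libraries. Over all regions of all 4 libraries near a start, this order was seen in 25.8% for FOXL2 and 28% for H3K27ac. The 2 FOXL2 regions lie within the H3K27ac region, so the 3 are not independent. Which gene the SMAD2/3 site acts on was not tested.

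A FOXL2 region that was activin-only, chr13:16031153-16031528, lay inside the RefSeq span of Inhba, 16.9 kb from its deposited start, and was assigned to Gm22628. Its folds were 4.73 and 3.92, at percentiles of 14.1 and 5.43 in the activin lists, near the bottom of both. It was the only peak of any antibody within 100 kb of the Inhba start by coordinate.

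At Fst, a SMAD2/3 peak of activin 2 alone, with a fold of 5.42, lay at +51.3 kb and was assigned to Ndufs4. The FOXL2 region at that place, chr13:114407035-114407846, had folds of 23.5 and 16.3 in vehicle and 27.6 and 26.0 in activin, and ranked higher in both activin libraries. That order was seen in 25.8% of FOXL2 regions of all 4 libraries near a start. An H3K27ac region of all 4 libraries lay at +70.8 kb, with folds between 4.18 and 5.04. Single SMAD2/3 peaks of activin 1 also lay at +52.6 kb from Inha (fold 4.74) and at +70.7 kb from Fstl3 (fold 4.21).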
